A study of Rattus norvegicus with 28 samples.

Results

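The cardiac identity transcription factors are 9 genes whose proteins switch on the heart muscle programme, namely Gata4, Gata6, Nkx2-5, Hand2, Mef2a, Mef2c, Mef2d, Tbx5 and Tbx20. They were chosen by symbol, and all 9 were found among the 11383 genes of the RNA table. The cells were cardiomyocytes, the contractile cells of the heart, taken from rats aged 6 to 8 months and kept for 48 hours in M199 medium with insulin, transferrin and selenium, HEPES and the antimicrobial primocin. The RNA groups were infected with an adenovirus (AdV), labelled either Null AdV (3 libraries) or shDesmin AdV (3 libraries), the latter carrying a short hairpin RNA (shRNA) against desmin, the muscle intermediate filament protein. Strain and sex are not given in the sources used here, nor is whether the null virus carries a hairpin, since the protocol text of the series names a scrambled control and the RNA labels do not. If it carries none, desmin depletion and the presence of a hairpin cannot be told apart. A further 22 libraries of 28 held Lamin B chromatin immunoprecipitation (ChIP) or input DNA from scrambled shRNA and shDesmin cells, and from these only the authors' domains of lamina contact (lamina-associated domains, LADs) in control cells were used. The labels do not tie a library to an animal or a culture, and p-values then measure the spread between libraries, which may be technical.

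These factors bind each other as well as DNA. GATA4 and GATA6 are zinc finger proteins, NKX2-5 is a homeodomain protein, TBX5 and TBX20 are T-box proteins, HAND2 is a basic helix-loop-helix protein and the MEF2 proteins carry a MADS box, and together they occupy the enhancers of sarcomere, ion channel and natriuretic peptide genes. In mouse, loss of any of several of them stops heart formation in the embryo, and in the adult myocyte they keep being expressed and maintain contractile gene expression.

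Reads over listed genes ranged from 8724543 to 10908458 per RNA library, and levels are given as log2 CPM, a base-2 logarithm of read counts relative to a scaled library size. The deposited values fix the scale factors only relative to each other. They were set here so that all 6 multiply to 1, and levels in CPM depend on that choice while folds do not. The factors were then 1.17 to 1.42 in null and 0.732 to 0.834 in shDesmin libraries. Mitochondrial transcripts took 24.7 to 34.5% of null and 35.0 to 39.1% of shDesmin reads. Null replicate 1 stood apart from the other null libraries, being the farthest of the 3 for 53.1% of the genes tested, and the values of Mef2a, Mef2c and Tbx20 are given without it as well. It also held the highest null value of 6 of the 9 factor genes. Des, the targeted gene, fell to 9.54% of its null level in scaled CPM (79455, 66101 and 79168 reads in null and 4406, 3752 and 4921 in shDesmin libraries). Of 10 cardiomyocyte markers 9 were listed (all but Ttn), with a summed level of 22505 to 28211 CPM in null and 69060 to 80798 CPM in shDesmin libraries.

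Gata4, Gata6, Nkx2-5 and Hand2 were lower in shDesmin libraries, while no MEF2 or T-box gene passed the test in either direction. All 9 passed the filter on low values (3 or more of the 6 libraries above 0 log2 CPM), and 4 were called lower, 0 higher and 5 not called (limma over 11033 genes, Benjamini-Hochberg adjusted p under 0.05, two-sided). Of all genes tested, 31.4% were called lower, 27.5% higher and 58.9% in either direction, so 4 calls among 9 genes is no excess of calls. The log2 fold was below 0 for 7 of the 9 genes and for 52% of all genes tested. The members' median log2 fold was -0.29, beside -0.04 for all genes tested. In bulk RNA, fewer cells of a type and less RNA per cell cannot be told apart. An exact permutation test of 3 libraries against 3 cannot go below p = 0.1, a value reached by 6 of the 9 genes, whose groups did not overlap, as was true of 64.9% of all genes.

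**Figure D1:**
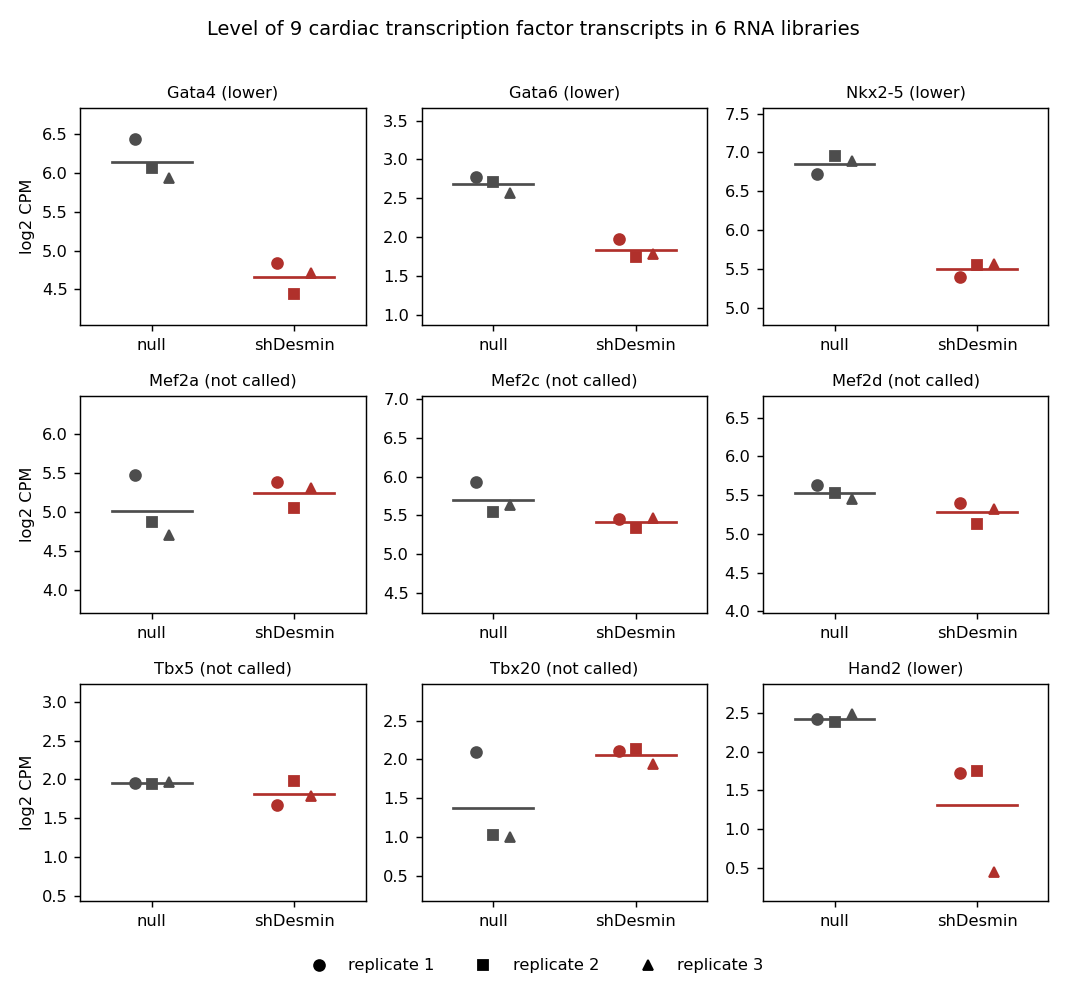
Level of each of the 9 transcripts (y axis, log2 CPM, each panel spanning the same range) in 3 null and 3 shDesmin RNA libraries (x axis). Symbols are replicates and bars are group means; Gata4, Gata6, Nkx2-5 and Hand2 separate the groups with every shDesmin library below every null library, and in Tbx20 null replicate 1 sits at 2.09, with the shDesmin libraries.

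Gata4 encodes a zinc finger factor that drives cardiac and hypertrophic genes. It stood at 6.44, 6.06 and 5.94 log2 CPM in null replicates 1 to 3 and at 4.85, 4.44 and 4.71 in shDesmin replicates 1 to 3, and the groups did not overlap. The reads behind these levels numbered 1130, 740 and 780 in null and 230, 145 and 201 in shDesmin libraries. Gata4 fell 2.79-fold (log2 change -1.48, SE 0.15, limma adjusted p = 9.3e-06), and the 95% interval ran from 2.23-fold to 3.50-fold lower. This gene (ENSRNOG00000010708, rn6 chromosome 15, 46386712 to 46432965) had the lowest log2 fold of the 9, lower than all but 6.75% of the genes tested.

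Gata6, whose product is the other main GATA factor of the myocyte, moved the same way by less. Its levels were 2.78, 2.71 and 2.57 log2 CPM in null and 1.97, 1.75 and 1.79 in shDesmin libraries, from 89, 72 and 75 reads and 31, 22 and 26 reads. Every shDesmin library lay below every null library. Gata6 (ENSRNOG00000023433, rn6 chromosome 18, 2416552 to 2446338) fell 1.80-fold (log2 change -0.85, SE 0.20, limma adjusted p = 0.0040).

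Nkx2-5 encodes the homeodomain factor that marks cardiac cells from the earliest stages of the heart. Its levels were 6.72, 6.95 and 6.89 log2 CPM in null and 5.40, 5.55 and 5.56 in shDesmin libraries, from 1377, 1366 and 1509 reads and 337, 313 and 362 reads. The 3 values within each group lay close together, with an SD of 0.12 in null and 0.09 in shDesmin libraries (n = 3 each). Nkx2-5 (ENSRNOG00000020747, rn6 chromosome 10, 16635989 to 16638764) fell 2.56-fold (log2 change -1.35, SE 0.10, limma adjusted p = 1.2e-06).

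Hand2 encodes a helix-loop-helix factor that, in mouse, is needed for the right ventricle. It was measured at 2.42, 2.38 and 2.49 log2 CPM in null and at 1.72, 1.75 and 0.45 in shDesmin libraries. The lowest of these, shDesmin replicate 3, rested on 10 reads, while the others held 22 to 71. Hand2 (ENSRNOG00000060448, rn6 chromosome 16, 36371489 to 36373546) fell 2.17-fold (log2 change -1.12, SE 0.34, limma adjusted p = 0.014). Without shDesmin replicate 3 the log2 change was -0.69 (limma adjusted p = 0.029), and over 18 alternatives the limma adjusted p ran from 0.0010 to 0.047.

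Printed below are the promoters of Nkx2-5, Gata6 and Hand2, which fell together, to show the letters just upstream of each gene. That of Mef2a, which did not fall, is added for its match to the MEF2 consensus. Binding to these promoters was not tested. They come from RefSeq on build GRCr8, span 250 bases before to 50 after the annotated start, and 7 of the 9 genes have an entry, all but Gata4 and Mef2c. Capitals mark matches on either strand to GATA preceded by A or T and followed by A or G (GATA words), to the NKX2-5 element (T, any base, then AAGTG), to AGGTGT (a T-box word) or to the MEF2 consensus.
Nkx2-5: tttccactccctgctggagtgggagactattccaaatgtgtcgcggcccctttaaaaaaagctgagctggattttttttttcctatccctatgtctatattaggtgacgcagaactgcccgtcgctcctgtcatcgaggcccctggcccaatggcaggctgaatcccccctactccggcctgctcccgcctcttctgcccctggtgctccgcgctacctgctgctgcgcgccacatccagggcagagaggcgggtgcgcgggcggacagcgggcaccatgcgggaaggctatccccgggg
Gata6: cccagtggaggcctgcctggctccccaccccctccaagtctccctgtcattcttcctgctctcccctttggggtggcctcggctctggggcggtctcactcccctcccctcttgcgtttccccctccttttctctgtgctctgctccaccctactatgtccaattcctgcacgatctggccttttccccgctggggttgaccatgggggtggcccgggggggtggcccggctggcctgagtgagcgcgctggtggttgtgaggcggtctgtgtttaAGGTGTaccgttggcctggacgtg
Hand2: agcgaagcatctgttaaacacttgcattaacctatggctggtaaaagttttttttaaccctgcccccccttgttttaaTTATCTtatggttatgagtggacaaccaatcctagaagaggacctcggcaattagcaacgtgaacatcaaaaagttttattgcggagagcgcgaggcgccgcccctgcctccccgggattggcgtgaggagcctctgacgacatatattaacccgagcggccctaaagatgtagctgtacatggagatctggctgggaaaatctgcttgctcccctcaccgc
Mef2a: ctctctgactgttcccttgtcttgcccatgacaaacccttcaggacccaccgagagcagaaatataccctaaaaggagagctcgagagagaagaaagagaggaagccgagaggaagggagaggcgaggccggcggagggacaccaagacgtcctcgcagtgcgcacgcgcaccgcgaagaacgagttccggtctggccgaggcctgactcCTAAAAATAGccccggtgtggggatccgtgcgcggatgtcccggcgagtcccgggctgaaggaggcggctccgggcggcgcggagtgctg
They lie at chr10:16848350-16848649 (plus strand), chr18:2460659-2460958 (plus strand), chr16:37931439-37931738 (minus strand) and chr1:130392113-130392412 (minus strand). The Nkx2-5 window holds none of these words. The Gata6 window has a T-box word whose first base lies 26 bases after the start, and 13.6% of the 33469 RefSeq windows hold one. In the Hand2 window a GATA word begins 172 bases before the start, and GATA words occur in 30.3% of all windows. The Mef2a window has a MEF2 match 40 bases before the start, which 0.565% of windows have. Over the 7 windows, 3 held a GATA word (Mef2d, Tbx5 and Hand2), 1 a T-box word, 1 a MEF2 match and 0 the NKX2-5 element, which 11.5% of all windows hold. No window held more than 1 match, so no match overlapped another. GC content was 49.3% in the Hand2 window and 56.0 to 71.3% in the other 6, beside a median of 51.7% over all windows.

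No MEF2 gene passed the test, and their values differed in sign. MEF2 proteins bind A/T-rich sites in muscle genes, and in the adult heart their activity is set largely by kinases, calcineurin and class IIa histone deacetylases. Mef2a stood at 5.48, 4.87 and 4.71 log2 CPM in null and at 5.39, 5.05 and 5.31 in shDesmin libraries, and the groups overlapped through null replicate 1. Its log2 difference was 0.23 (SE 0.18, limma adjusted p = 0.29), with a 95% interval from -0.17 to 0.63. Without null replicate 1 it was called higher, at 0.46 (limma adjusted p = 0.0074), and over 19 alternatives the limma adjusted p ran from 0.0074 to 0.74.

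Mef2c, the MEF2 gene whose loss stops heart looping in mouse, was at 5.93, 5.54 and 5.64 log2 CPM in null and at 5.45, 5.34 and 5.46 in shDesmin libraries. These groups did not overlap, though their nearest values, 5.54 in null and 5.46 in shDesmin libraries, lay close together. The log2 difference was -0.29 (SE 0.12, 95% interval -0.55 to -0.02, limma adjusted p = 0.058). Without null replicate 1, its highest value, the log2 difference was -0.17 (limma adjusted p = 0.15). It passed the threshold without null replicate 2, at -0.37 (limma adjusted p = 0.041), with a limma adjusted p of 0.00025 to 0.46 over 19 alternatives.
Mef2d, which encodes the MEF2 protein that responds to stress signals in the adult mouse heart, was at 5.63, 5.52 and 5.44 log2 CPM in null and at 5.40, 5.12 and 5.32 in shDesmin libraries. Its groups were also separate, and its log2 difference was -0.25 (SE 0.11, 95% interval -0.50 to -0.0050, limma adjusted p = 0.073). The 3 Mef2 genes rested on 222 to 796 reads a library, and under the deposited scaling the lower ends of their 95% intervals (-0.17, -0.55 and -0.50) lay above the upper end of that of Gata4 (-1.15).

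The T-box genes were measured with few reads, 22 to 55 a library, and neither passed the test. Tbx5, whose product activates Nppa and conduction genes together with NKX2-5 and GATA4, was at 1.95, 1.94 and 1.96 log2 CPM in null and at 1.67, 1.98 and 1.79 in shDesmin libraries. Its groups overlapped, and the log2 difference was -0.14 (SE 0.23, 95% interval -0.63 to 0.36, limma adjusted p = 0.61). A fall of 1.55-fold or a rise of 1.28-fold therefore lay at the ends of the interval.
Tbx20, whose product both activates myocyte genes and represses others, was at 2.09, 1.02 and 1.00 log2 CPM in null and at 2.11, 2.14 and 1.94 in shDesmin libraries. Null replicate 1, with 55 reads against 22 and 25 in the other null libraries, lay among the shDesmin values. The log2 difference was 0.69 (SE 0.32, 95% interval -0.0035 to 1.38, limma adjusted p = 0.080). Without null replicate 1 Tbx20 was called higher, at 1.05 (limma adjusted p = 0.0067), and over 18 alternatives the limma adjusted p ran from 0.0051 to 0.96.

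The direction of the called genes did not depend on how libraries were scaled, and that of several others did. Scaling by library totals moved the median log2 fold of all genes from -0.04 to -0.75, a shift of -0.71, and median centring moved it by 0.18. Gata4, Gata6, Nkx2-5 and Hand2 were called lower under each of the 5 scaling alternatives, from -1.30 to -2.19 for Gata4 and from -1.17 to -2.06 for Nkx2-5. Under library totals Mef2c (-0.997), Mef2d (-0.96) and Tbx5 (-0.85) were called lower too. Tbx20 turned from 0.69 to -0.022 under totals and was called higher under median centring (0.87, limma adjusted p = 0.029) and quantile normalization (0.87, limma adjusted p = 0.031). Relative to the median of all genes, which a common scaling does not move, Gata4 lay at -1.44, Nkx2-5 at -1.31, Hand2 at -1.08, Gata6 at -0.81, Mef2c at -0.24, Mef2d at -0.21, Tbx5 at -0.10, Mef2a at 0.27 and Tbx20 at 0.73.

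**Figure D2:**
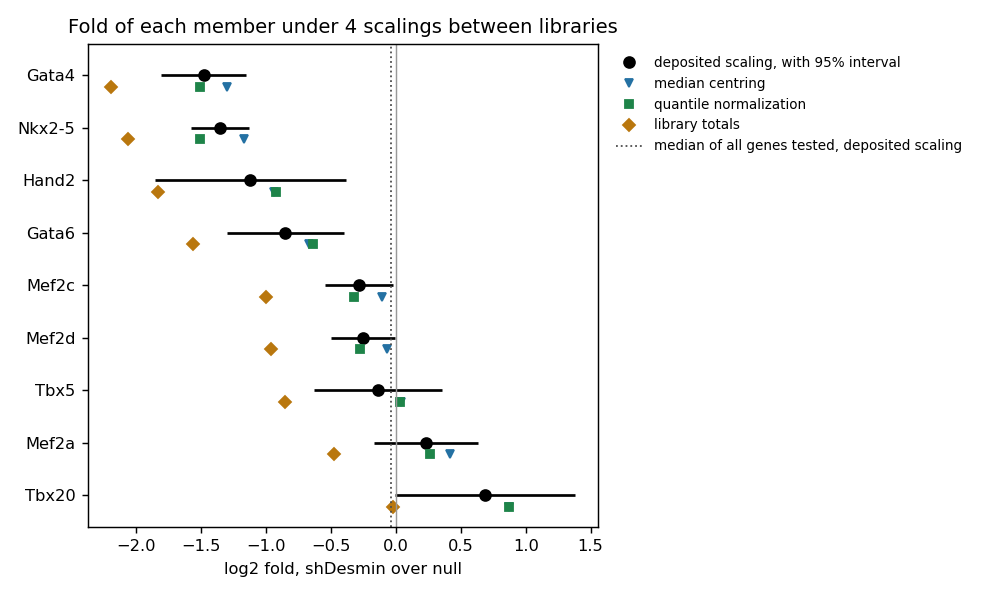
Log2 fold of shDesmin over null for each of the 9 genes (x axis), with the 95% limma interval under the deposited scaling and the same fold under 3 other scalings; the dotted line is the median of all genes tested (-0.04). The 4 called genes lie below 0 under each scaling drawn, from Gata4 at -1.48 to Gata6 at -0.85 as deposited, while Tbx20 moves between 0.87 and -0.022.

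Ratios between related genes within a library do not depend on a scaling that is common to all genes. Log2 Gata4 over Gata6 was 3.66, 3.35 and 3.37 in null and 2.87, 2.69 and 2.93 in shDesmin libraries, lower by 0.63 on average with no overlap. Log2 Mef2a over Mef2c was -0.45, -0.67 and -0.93 in null and -0.06, -0.29 and -0.15 in shDesmin libraries, so Mef2a gained on Mef2c in each shDesmin library. Mef2a took 28.7, 24.0 and 21.9% of the reads of the 3 Mef2 genes in null and 32.7, 30.6 and 32.1% in shDesmin libraries, shares that reflect transcript length as well as level. Log2 Mef2a over Mef2d moved by 0.48 and Tbx5 over Tbx20 by -0.83, again without overlap. For the T-box pair null replicate 1 (-0.14) lay just above the highest shDesmin value (-0.15). For Mef2a over Mef2d null replicate 1 (-0.15) lay close below the lowest shDesmin value (-0.07). Mef2c over Mef2d (a shift of -0.03) and Nkx2-5 over Gata4 (0.13) overlapped between groups. In the exact two-sided permutation test of 3 against 3, the 4 ratios without overlap each gave p = 0.1, the smallest this design allows. After Benjamini-Hochberg adjustment over 6 ratios this exact test gave 0.15 for each of them. The other ratios gave p = 0.8 and p = 0.7 by the same exact test. Among single genes 64.9% did not overlap between groups, and the share for ratios of other gene pairs was not examined.

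**Figure D3:**
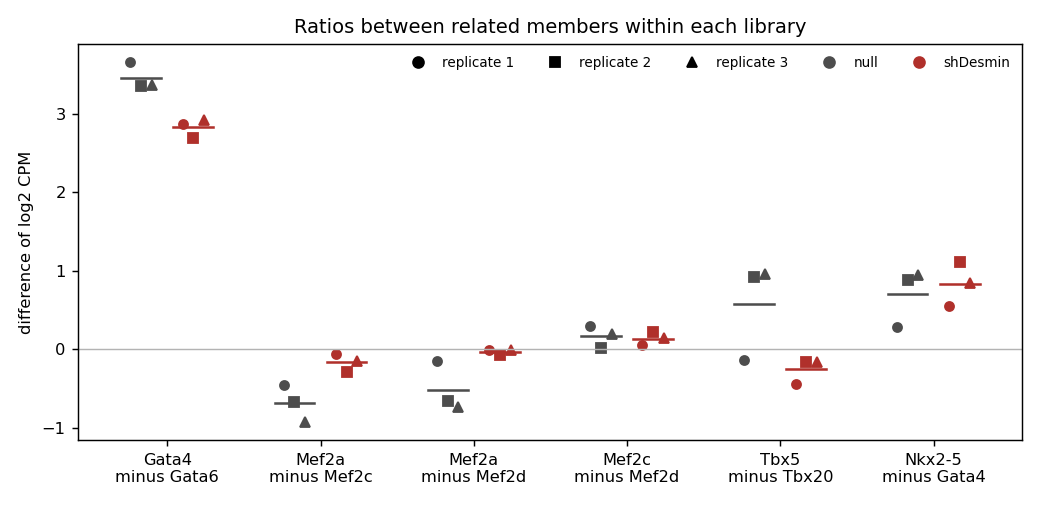
Difference of log2 CPM between related genes within each library (y axis) for 6 pairs (x axis), null in grey and shDesmin in red, with replicates as symbols and group means as bars. Gata4 over Gata6 drops from a mean of 3.46 to 2.83, and both Mef2a ratios sit higher in the shDesmin libraries.

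Transcripts of known targets of these factors were mostly higher in the same libraries. Of 46 target genes 41 were tested, and 30 rose and 3 fell, with a median log2 fold of 1.06 (beside -0.04 for all genes, 27.5% called higher and 31.4% lower). Pln, whose small membrane protein restrains calcium uptake into the sarcoplasmic reticulum, rose from 7.52, 7.65 and 7.85 to 10.7, 11.1 and 10.9 log2 CPM (9.28-fold, limma adjusted p = 1.9e-08). The calcium pump gene Atp2a2 rose 4.88-fold, the alpha-myosin heavy chain gene Myh6 4.13-fold and the glucose transporter gene Slc2a4, a MEF2 target, 3.96-fold. Under quantile normalization the log2 fold of Atp2a2 was 1.16 instead of 2.29 and that of Myh6 0.88 instead of 2.05. The exceptions were Xirp1, an actin-binding gene that MEF2 activates (4.41-fold lower), the cell cycle inhibitor gene Cdkn1a (2.41-fold lower) and the nuclear receptor gene Nr4a1 (1.95-fold lower). Nppa and Nppb, the natriuretic peptide genes that GATA4, NKX2-5 and TBX5 activate, were chosen after their values were seen. Nppa rose 1.43-fold (limma adjusted p = 0.0022), and Nppb was at 9.23 ± 0.12 log2 CPM in null and 9.04 ± 0.17 in shDesmin libraries (SD, n = 3, limma adjusted p = 0.16). The log2 fold of Nppa was 0.51 and that of Nppb -0.19 under the deposited scaling. Library totals shift every fold by -0.71, so the sign of the Nppa fold depends on the scaling, and Nppb then lies further below 0. Under library totals the target median was 0.35, with 21 higher and 7 lower, and under quantile normalization it was 0.59, with 25 higher and 8 lower. Under the deposited scaling all 9 tested cardiomyocyte markers rose (median log2 fold 1.44), whereas under quantile normalization 5 of the 9 did (median 0.47). The target list holds 7 of the 10 genes of the cardiomyocyte marker list, so the lists are not independent.

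**Figure D4:**
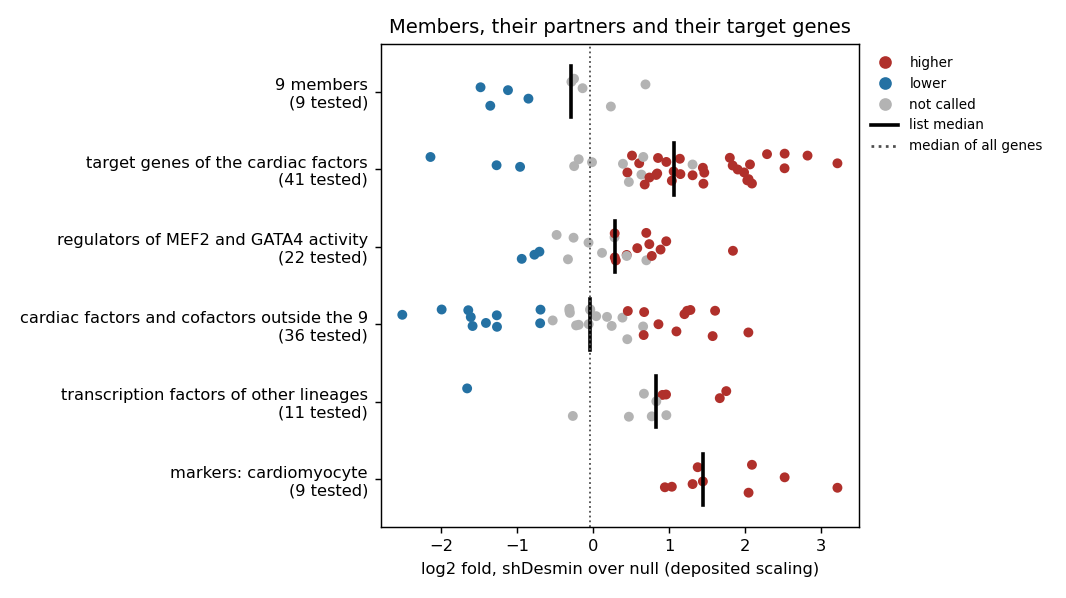
Log2 fold of shDesmin over null (x axis, deposited scaling) for the 9 members, 4 lists of related genes and the cardiomyocyte markers (y axis, each dot a gene, vertical bars list medians). Under this scaling target genes centre on 1.06 and cardiomyocyte markers on 1.44 (0.59 and 0.47 under quantile normalization), whereas the members centre on -0.29 and the other cardiac factors on -0.04.

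Other cardiac factors and cofactors went both ways. Of 48 such genes 36 were tested, and 11 rose, 10 fell and 15 were not called, with a median log2 fold of -0.04. Of all genes tested 27.5% were called higher and 31.4% lower, so these counts lie near the shares of all genes. Among those that rose, Hopx, a homeodomain-only gene that NKX2-5 activates, did so 3.04-fold, the muscle methyltransferase gene Smyd1 2.97-fold, the LIM-domain gene Fhl2 2.36-fold and Srf, which encodes serum response factor, 1.81-fold. Srf was not called under library totals (0.15, limma adjusted p = 0.30), and under quantile normalization the log2 folds of Fhl2 and Srf were 0.81 and 0.56 instead of 1.24 and 0.86. Among those that fell were Klf15, a repressor of hypertrophy (5.70-fold), the calcineurin-dependent factor gene Nfatc2 (3.98-fold), Irx3, a factor of the conduction system (3.12-fold), and Zfpm1, which encodes the GATA partner FOG1 (2.40-fold). Klf15 had 66 to 105 reads in null and 6 to 12 in shDesmin libraries. The same ranges were 36 to 49 and 4 to 8 for Nfatc2, and 66 to 87 and 12 to 19 for Irx3. These shDesmin reads are few. Paralogs of the members and Zfpm2 were picked out after their values were seen. Gata5 went from 2.28 ± 0.16 to 0.69 ± 0.60 log2 CPM (SD, n = 3, 3.00-fold lower, limma adjusted p = 0.0015). Its reads were few, 68, 47 and 64 in null and 10, 17 and 9 in shDesmin libraries. The T-box paralogs Tbx3 (log2 fold -0.06, limma adjusted p = 0.93) and Tbx18 (0.66, limma adjusted p = 0.22) were not called. Mef2b went from 0.24 ± 0.17 to 0.20 ± 0.83 (SD, n = 3, limma adjusted p = 0.95). Zfpm2, which encodes the heart's main GATA cofactor FOG2, was at 2.30 ± 0.35 and 2.48 ± 0.27 log2 CPM (SD, n = 3, limma adjusted p = 0.53).

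Of 25 genes that set the activity of MEF2 and GATA4 22 were tested, and 11 rose and 3 fell. Of all genes tested, 27.5% were called higher and 31.4% lower. The median log2 fold of these regulators was 0.29, which turned to -0.42 under library totals. The calcineurin subunit genes Ppp3cb (1.95-fold) and Ppp3r1 (1.71-fold) rose, as did Rcan2 (3.58-fold) and Rcan1 (1.62-fold), whose products bind calcineurin. Under library totals Ppp3cb, Ppp3r1 and Rcan1 were not called, and Rcan1 stood at -0.23 under quantile normalization (limma adjusted p = 0.019). The 3 that fell were Hdac5, a class IIa histone deacetylase that represses MEF2 (6.35, 6.55 and 6.62 to 5.64, 5.74 and 5.83 log2 CPM, 1.71-fold), Cabin1, which encodes a calcineurin- and MEF2-binding repressor (1.92-fold), and the kinase gene Map2k5 (1.63-fold).

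Factors that define other lineages were measured at low levels. Of 37 such genes 12 were listed and 11 tested, and 4 rose and 1 fell (median log2 fold 0.83). Under library totals 2 were higher and 2 lower, with a median of 0.12. The endothelial factor genes Fli1 (3.17-fold), Sox17 (1.88-fold) and Erg (1.94-fold) and the mesenchymal factor gene Foxc1 (3.37-fold) rose, and the blood factor gene Runx1 fell 3.16-fold. Erg was not called without shDesmin replicate 3 (limma adjusted p = 0.075), and Erg and Sox17 were not called under library totals. Markers of other cells moved with the groups, though Pecam1 (endothelial), Col1a2, Pdgfra and Postn (fibroblast) and Ptprc and Adgre1 (leukocyte and macrophage) were not among the listed genes. Of 10 endothelial markers 9 were tested, and 6 rose and 1 fell, with a summed level of 131 to 221 CPM in null and 262 to 392 CPM in shDesmin libraries. Of 10 smooth muscle and pericyte markers 8 were tested, and 6 rose and 1 fell (279 to 438 CPM against 539 to 903 CPM), and the 4 listed of 10 fibroblast markers all rose (6.68 to 17.5 CPM against 24.2 to 59.5 CPM). Of 10 macrophage and leukocyte markers 3 were listed and 2 tested, and 1 fell (17.1 to 17.9 CPM against 3.95 to 5.18 CPM). These sums and counts depend on the deposited scaling, under which 27.5% of all genes tested were called higher and 31.4% lower. Under library totals the median log2 fold of endothelial markers was 0.21 instead of 0.92, and that of smooth muscle and pericyte markers 0.44 instead of 1.15. For fibroblast markers it was 0.82 instead of 1.53, and for macrophage and leukocyte markers -2.20 instead of -1.49. Among chamber markers, 3 of 5 ventricular genes rose (3991 to 4940 CPM against 12334 to 14691 CPM). The others, Irx4 (log2 fold -0.22) and Hey2 (-0.31), named after their values were seen, were not called. Under library totals 3 were higher and 2 lower. Under quantile normalization 2 rose, and the ventricular median log2 fold was 0.24 instead of 1.45. Of 9 atrial genes 4 were listed and 2 rose (1283 to 1509 CPM against 1917 to 2247 CPM). Nppa (10.3 to 10.5 log2 CPM in null libraries) made up most of that sum, and the other that rose had 2 to 42 reads a library. The atrial median log2 fold was 0.20 under library totals instead of 0.91. The highest endothelial, smooth muscle and fibroblast sums were in shDesmin replicate 3, where Hand2 was lowest, and the part of other cells in the factor levels was not tested.

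None of the 9 genes lay in a lamina-associated domain of scrambled control cells. By the rule that at least 50% of the gene span be covered, 0 of 9 were in a LAD, beside 3.96% of 11005 tested genes with a position on a chromosome that has LADs. The authors made this list from 3 replicates joined together, so it has no replicate check. The distance from a gene to the nearest of the 1883 LADs had a median of 823 kilobases over tested genes, and 5 of the 9 lay farther. Tbx20 and Mef2c lay nearest, at 11.96 and 18.0 kilobases, and Hand2 followed at 357 kilobases. Gata6 (718 kilobases), Gata4 (1173), Mef2d (1500), Mef2a (1578), Nkx2-5 (3345) and Tbx5 (5957) were farther. The called genes therefore ran from 357 to 3345 kilobases, and the genes not called from 11.96 to 5957 kilobases. No LADs of shDesmin cells were used here.

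No member overlapped another gene of the RNA table, whose positions carry no strand. The gene nearest to Gata4 was Neil2, which encodes a DNA glycosylase of base excision repair, 4.75 kilobases away, and it fell by 2.86 on the log2 scale (limma adjusted p = 0.0086). Beside Hand2, at 1.05 kilobases, lay the feature AABR07025387.1, which rose by 1.69 on the log2 scale (limma adjusted p = 3.4e-05) while Hand2 fell. The feature on its other side, AABR07025386.1, 74.1 kilobases away, rose too, by 1.02 (limma adjusted p = 0.0028). Of the genes beside Nkx2-5, Stc2 had a log2 fold of -1.09 (limma adjusted p = 0.0013) and Bnip1 of -0.07 (limma adjusted p = 0.70). On the farther side of Gata4, Fam167a, 181 kilobases away, rose by 0.71 (limma adjusted p = 0.036). These neighbours were named after their values were seen, and those of the other members are not described.

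Patterns most like each factor across the 6 libraries were found as the smallest Euclidean distance between values centred on each gene's mean, among 7018 genes with a mean of at least 3 log2 CPM. Nkx2-5 was nearest to Hexa, a lysosomal enzyme gene (distance 0.114), Gata6 to Tmem43, an inner nuclear membrane protein gene (0.0987), and Gata4 to Zscan21, a zinc finger gene (0.199). The nearest to Mef2a was Actr2, an actin-nucleating Arp2/3 subunit gene (0.104), to Mef2c Wdr26 (0.0981), to Mef2d the ubiquitin ligase gene Smurf1 (0.0871) and to Tbx5 Wrnip1 (0.0667). Tbx20 was nearest to the Mediator subunit gene Med1 (0.239). The nearest to Hand2, Bloc1s3, lay at 0.557. These are descriptions over 6 libraries that share the contrast between groups.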

How the data were processed

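RNA of 6 libraries was sequenced as 75 bp single-end reads, per the labels' protocols. The deposited table holds log2 values, per the file headers. Among the tools in the submitters' processing notes, which give no roles, are STAR 2.6.0c, Trimmomatic 0.32, limma, edgeR and featureCounts. In every library 2 raised to the value was a fixed step times a whole number plus 0.5 (100% of values within 0.001), so reads were recovered. Log2 CPM followed once the constant shared by the libraries was set as above. A further deposited table, with the authors' own test of the same groups, gives p-values beside a signed fold and a t score for each gene, per the file headers, and served as an alternative. LADs (positions, rn6) came from 3 control ChIP replicates that the authors joined, per the series' design text. The model, group alone, was fitted to 11033 genes by lmFit and eBayes (with a variance trend) of limma 3.58.1, run in R 4.3.3. The step was also run on simulated reads in which few genes changed and no library stood apart. These settings differ from the present data, so that run does not show how well the calls hold here. Python 3.11.15, numpy 2.4.6, scipy 1.17.1, pandas 2.3.3 and matplotlib 3.10.9 were also used. Low-read folds are understated by the 0.5 added to each count, and 3 reads, the limit that 0 reads allow, equal 0.230 to 0.447 CPM (counting error only). Members, lists and tests were chosen with earlier results of these data known. Named are all members, up to 4 genes of each list in each direction by adjusted p, Des, and the gene nearest in pattern; others are marked in the text as chosen after their values were seen. Alternatives were other scalings, filters, pseudocounts and weights, a replicate block and leaving out each library. Same-numbered libraries had deviation correlations of 0.13, -0.07 and -0.17. With 3 libraries a group these cannot decide whether numbers pair libraries, and the labels do not say. Replicates differed by more than sampling of reads allows (chi-square over degrees of freedom, 4.94 to 36.7).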

Additional observations from a re-analysis of the deposited data

How the results depend on the processing

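Gata4, Gata6 and Nkx2-5 were called lower under all 19 alternatives and Hand2 under the 18 that kept it, since the stricter filter (mean above 2 log2 CPM) removed Hand2, Tbx5 and Tbx20. Under library totals, with and without mitochondrial genes, 802 and 1151 of all genes were higher and 6892 and 6253 lower, and 7 members were lower in each. Members called higher numbered 2 with library weights, 1 with median centring and 1 with quantile normalization, and 0 to 2 when a library was left out (2 without null replicate 1), while 4 to 5 were then lower. Mef2a reversed to -0.48 and -0.31 under those totals, Tbx5 to 0.042 and 0.033 under median centring and quantile normalization, and Tbx20 to -0.022 under totals. Other cardiac factors divided into 4 higher and 19 lower under totals and 5 and 19 without mitochondrial genes, with 5 lower under the stricter filter. For regulators of MEF2 and GATA4 the counts were 1 and 12, then 2 and 8. Targets that were lower numbered 7 and 5 under those totals and 8 under quantile normalization. Factors of other lineages that were higher numbered 2 and 2 under those totals (2 lower under the first), 7 under median centring, 7 under quantile normalization, 2 under the stricter filter and 3 to 6 when a library was left out. The cause was not tested, though totals and centring shift every fold alike. The Gata4 to Gata6 shift was -0.87 under quantile normalization. Counting any overlap with a LAD extended by 50 kilobases, in place of 50% of the span, put 2 of 9 members in, beside 8.65% of tested genes. With the replicate number as a block 5 members were lower and 0 higher, Mef2c being added (log2 fold -0.29, limma adjusted p = 0.044). Whether the numbers pair the samples is not known. The planned edgeR count test on recovered reads was not run.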
